A study of Homo sapiens with 12 samples.

Results

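Metallothioneins, the zinc-sensing transcription factor MTF1 and 4 zinc transporters were examined in C4-2 cells, an androgen-responsive prostate cancer line derived from LNCaP, by RNA sequencing (RNAseq). The 10 genes MT1E, MT1F, MT1G, MT1X, MT2A, MTF1, SLC30A1, SLC30A4, SLC39A6 and SLC39A10 were chosen by name from the 54127 genes counted, and each symbol matched 1 Ensembl gene. The 12 libraries were 6 of C4-2 cells given DMSO vehicle and 6 of C4-2 cells given 1 µM PBKi (TOPK32, also called HI-TOPK-032, an inhibitor of the PDZ binding kinase PBK). All cells were grown in RPMI medium with 10% serum, treatment lasted 6 h, and the labels describe the cells as flow sorted prostate cancer epithelium. A single line and a single dose and time were sampled, and nothing in the labels says that replicates were separate cultures, so p-values measure the spread between these libraries, which may be technical.

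Metallothioneins are small cysteine-rich proteins that bind zinc, copper and cadmium. Free zinc activates MTF1, which binds metal response elements in metallothionein promoters and in that of the exporter gene SLC30A1, so these transcripts are commonly used as a readout of the zinc that reaches MTF1. SLC30 proteins move zinc out of the cytosol, across the plasma membrane or into vesicles, and SLC39 proteins bring zinc into the cytosol. The normal prostate is known for a very high zinc content, which falls in prostate cancer.

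The promoters of a metallothionein that fell strongly, of the most abundant metallothionein and of the zinc-responsive exporter are shown because they differ in the metal response element core. The sequences are the 250 bases before the start in RefSeq (GRCh38.p14), which held 7 of the 10 genes. They span chr16:56682220-56682469 for MT1X (plus strand), chr16:56608334-56608583 for MT2A (plus strand) and chr1:211579162-211579411 for SLC30A1 (minus strand). Capitals mark the core TGCACNC or TGCGCNC on either strand.
MT1X: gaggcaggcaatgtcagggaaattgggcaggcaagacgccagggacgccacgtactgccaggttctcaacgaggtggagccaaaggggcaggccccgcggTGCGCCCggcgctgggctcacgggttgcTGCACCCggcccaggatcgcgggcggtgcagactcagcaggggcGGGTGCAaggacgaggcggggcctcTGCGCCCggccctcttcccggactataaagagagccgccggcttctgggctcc
MT2A: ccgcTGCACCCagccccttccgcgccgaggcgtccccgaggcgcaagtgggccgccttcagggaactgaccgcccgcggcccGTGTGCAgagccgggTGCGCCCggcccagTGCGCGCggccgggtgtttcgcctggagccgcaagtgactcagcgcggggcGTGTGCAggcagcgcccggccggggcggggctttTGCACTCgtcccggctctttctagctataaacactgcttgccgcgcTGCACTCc
SLC30A1: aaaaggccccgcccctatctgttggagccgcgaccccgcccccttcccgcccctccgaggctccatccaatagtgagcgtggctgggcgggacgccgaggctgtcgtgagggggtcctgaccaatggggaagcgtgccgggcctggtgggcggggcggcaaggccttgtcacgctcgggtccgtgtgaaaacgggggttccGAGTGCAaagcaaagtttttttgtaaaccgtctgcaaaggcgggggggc
MT2A held 7 matches, MT1X held 4 and SLC30A1 held 1, and no neighbouring matches overlapped. Of 35116 promoters of this length, 24.8% held at least 1 match, 0.37% at least 4 and 0.0313% at least 7. SLC30A4 and SLC39A6 held 1 match each, and MTF1 and both listed starts of SLC39A10 held 0. MT1E, MT1F and MT1G were not among the promoters used here. A match is a description of the letters only.

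The libraries held 9663203 to 28029908 reads on genes in DMSO and 13122415 to 22817803 in PBKi (two-sided exact permutation test, p = 0.905, n = 6 per group). Reads left uncounted because they overlapped more than 1 gene took 3.87% to 4.10% in DMSO and 4.16% to 4.35% in PBKi (two-sided exact permutation test, p = 0.00216, the smallest that these splits allow). No exon of another annotated gene overlapped those of the 5 metallothionein members. The transcript of PBK, the target of the compound, had a log2 fold change of PBKi over DMSO of -0.42 (adjusted p = 0.00194 from edgeR, which models read counts across all genes), a value that says nothing of kinase activity. All 11 prostate luminal markers were tested and summed to 5661 to 6857 CPM in DMSO and 3355 to 4252 CPM in PBKi, where 6 fell and 1 rose, beside 21.5% and 20.1% of all genes tested. CPM is the read count of a gene scaled to the size of its library, here adjusted with TMM factors that align the bulk of genes between libraries. Leukocyte markers summed to 2.77 to 4.70 CPM in DMSO and 5.24 to 6.38 CPM in PBKi and were mostly CD68. CD68, the only one tested, was higher at 0.68 on the log2 scale (adjusted p = 0.000642, edgeR). CD3E and LYZ had 0 reads in DMSO and PTPRC had 3. Basal markers summed to 1.10 to 1.73 CPM in DMSO and 0.665 to 1.50 CPM in PBKi, with KRT5 at 0 reads in DMSO and KRT14, the only one tested, lower at -0.73 on the log2 scale (adjusted p = 0.0126, edgeR). Fibroblast and muscle markers summed to 18.1 to 23.5 CPM in DMSO and 18.0 to 22.8 CPM in PBKi. Endothelial markers, with PECAM1 not matched, summed to 4.03 to 7.25 CPM in DMSO and 3.09 to 4.63 CPM in PBKi, with VWF lower at -0.50 (adjusted p = 0.0155, edgeR). The part of these markers in the results was not tested.

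With PBKi, 3 metallothionein transcripts and the zinc importer SLC39A10 fell, MTF1 rose, and 3 transporters missed the threshold. MT1X fell by 56.8%, with no overlap between the groups. MT2A fell by 37.2% and MT1F by 39.5%, and MT1E and MT1G were near 0 reads in both groups. Of the 10 genes, 8 had at least 10 reads in at least 6 libraries and were tested, and of these 4 were lower and 1 was higher (quasi-likelihood test of edgeR, Benjamini-Hochberg adjusted p under 0.05 over 14505 genes, n = 6 per group). Over all genes tested 41.7% were called, 21.5% lower and 20.1% higher. Without TMM factors, from library size alone, the balance of calls over all genes moved from 48.3% higher to 60.0% higher, and the calls of these 8 genes kept their side. The median change on the log2 scale was -0.26 for the 8 genes and -0.01 for all genes tested. In bulk RNA, fewer cells of a type and less RNA per cell cannot be told apart.

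Per kilobase of transcript, MT2A was the most abundant of the 10 transcripts in DMSO, at 114.9 ± 37.2 CPM per kb (SD, n = 6). SLC39A6 followed at 60.2 ± 3.00, SLC30A4 at 47.8 ± 5.37 and MT1X at 45.4 ± 14.6 CPM per kb, and the last did not differ from either transporter beyond its spread. SLC39A10 lay at 14.1 ± 0.849 CPM per kb, above SLC30A1 at 8.50 ± 1.57 and MT1F at 8.09 ± 2.12 CPM per kb, which did not differ beyond their spread. MTF1, a transcription factor, was lower at 3.24 ± 0.675 CPM per kb. In PBKi the order was kept by SLC39A6 and SLC30A4, at 55.2 ± 3.13 and 51.4 ± 1.76 CPM per kb, which did not differ beyond their spread, behind MT2A at 71.4 ± 5.73 CPM per kb. MT1X was then at 19.3 ± 1.68 CPM per kb, SLC39A10 at 10.8 ± 0.539 and SLC30A1 at 8.54 ± 0.503. MT1F at 4.75 ± 0.876 and MTF1 at 4.11 ± 0.426 CPM per kb no longer differed beyond their spread.

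MT1X (ENSG00000187193, GRCh37 chr16:56716382-56718108, plus strand) is a member of the MT1 group of the metallothionein cluster, and gene positions from here on are on the same build. Its DMSO libraries lay between 10.6 and 26.9 CPM (median 18.1), and its PBKi libraries between 6.87 and 8.97 CPM (median 7.73). Every PBKi library was below every DMSO library, as for 9.68% of all genes tested. The mean fell from 18.3 ± 5.92 to 7.78 ± 0.680 CPM (SD, n = 6), a log2 fold change of -1.21 (SE 0.17, edgeR adjusted p = 2.95e-05). Libraries of replicates 1 to 3 and of replicates 4 to 6 were also fitted apart. The labels name no such sets, and the split was taken from earlier results of these data. The fall was called in replicates 1 to 3 alone (log2 fold change -1.07, adjusted p = 0.000822 in the same test) and in replicates 4 to 6 alone (-1.32, adjusted p = 0.000858).

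MT2A (ENSG00000125148, chr16:56642496-56643409, plus strand) encodes the metallothionein most widely expressed across tissues. Its DMSO libraries ranged from 25.2 to 69.3 CPM (median 44.9), and its PBKi libraries from 25.8 to 31.4 CPM (median 28.4). DMSO replicate 3 lay below all 6 PBKi libraries, and the other 5 DMSO libraries lay above them. The mean was 46.1 ± 14.9 CPM in DMSO and 28.6 ± 2.30 CPM in PBKi (SD, n = 6), a log2 fold change of -0.67 (SE 0.16, edgeR adjusted p = 0.00325). Replicates 4 to 6 gave -0.92 (adjusted p = 0.00225 in the same test), whereas replicates 1 to 3, which include DMSO replicate 3, gave -0.37 and missed the threshold (adjusted p = 0.0898). The difference between these sets did not pass the test (edgeR interaction, adjusted p = 0.927).

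MT1F (ENSG00000198417, chr16:56691643-56694610, plus strand) is another MT1 gene of the cluster and had only 22 to 68 reads per library. It lay between 2.27 and 4.95 CPM (median 3.36) in DMSO and between 1.63 and 2.62 CPM (median 2.03) in PBKi. The groups overlapped at the low end of DMSO. The mean fell from 3.44 ± 0.900 to 2.02 ± 0.372 CPM (SD, n = 6), a log2 fold change of -0.73 (SE 0.18, edgeR adjusted p = 0.00364). In replicates 1 to 3 alone it was -0.56 (adjusted p = 0.0593 from edgeR) and in replicates 4 to 6 alone -0.89 (adjusted p = 0.0286).

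**Figure D1:**
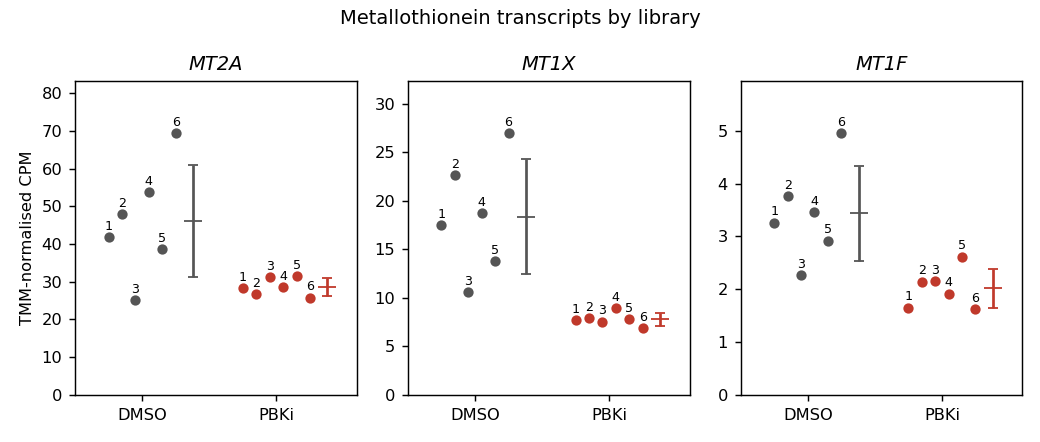
TMM-normalised CPM of MT2A, MT1X and MT1F (y axes, from 0) in each library of DMSO (grey) and PBKi (red), with replicate numbers at the points and the mean ± SD of 6 libraries beside them. DMSO libraries spread widely, from replicate 3 at the bottom to replicate 6 at the top in each panel. PBKi libraries sit in a narrower band, less clearly so for MT1F, and for MT1X this band lies below all DMSO libraries.

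MT1E and MT1G, the remaining metallothioneins, were close to absent. MT1E (ENSG00000169715, chr16:56659387-56661024, plus strand) had 6 reads over the DMSO libraries, at most 2 in any library, and 1 read over the PBKi libraries. MT1G (ENSG00000125144, chr16:56700642-56701977, minus strand) had 1 read in DMSO and 0 in PBKi, and a count of 0 allows up to 0.0298 CPM over the pooled reads of the 6 PBKi libraries. A difference between the groups was not detectable at this depth for either gene. This limit covers counting error only.

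Of 11 further metallothionein loci, 9 were matched and 0 had enough reads to test. The pseudogene MT1DP had 61 reads in DMSO and 50 in PBKi, and MT3, a brain-enriched metallothionein, had 11 and 10. The other 7 had 0 or 1 read per group, among them MT1H, whose promoter held 8 matches to the metal response element core. Metallothionein genes are close copies of each other, and reads that align to several places were left out of the counts. The share of 40-base windows with no exact match elsewhere in the genome or in other transcripts was 74.0% for MT1X, 77.9% for MT2A and 90.9% for MT1F. It was 75.0% for MT1E and 73.3% for MT1G. Near matches were not counted, so these shares can overstate how well copies are separated. Values of these genes rest on part of each transcript and are uncertain where copies cannot be separated.

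MT1X made up a smaller share of the metallothionein reads in every PBKi library than in any DMSO library. All metallothionein members summed to 38.1 to 101 CPM in DMSO (median 68.5) and to 34.3 to 41.8 CPM in PBKi (median 38.5), with overlap only through DMSO replicate 3. DMSO replicate 3 was the lowest and DMSO replicate 6 the highest DMSO library for MT2A, MT1X and MT1F alike. Without DMSO replicate 3 the log2 fold changes were -1.35 for MT1X, -0.81 for MT2A and -0.85 for MT1F, and without DMSO replicate 6 they were -1.06, -0.51 and -0.59, all still called. MT2A gave 67.7% ± 2.37 of metallothionein reads in DMSO and 74.5% ± 1.54 in PBKi, MT1X gave 27.0% ± 2.18 and 20.3% ± 1.64, and MT1F gave 5.16% ± 0.470 and 5.23% ± 0.711 (SD, n = 6).

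The ratio of MT1X to MT2A reads was 0.400 ± 0.0464 in DMSO and 0.273 ± 0.0275 in PBKi (SD, n = 6), with no overlap. This was a log2 difference of -0.55, with -0.70 in replicates 1 to 3 and -0.41 in replicates 4 to 6. DMSO replicate 3, where MT2A was below the PBKi libraries, had a ratio within the DMSO range, and without it the log2 difference was -0.54. The ratio of MT1X to MT1F was 5.26 ± 0.514 in DMSO and 3.95 ± 0.680 in PBKi, and that of MT1F to MT2A was 0.0764 ± 0.00855 and 0.0703 ± 0.00978, both with overlap. The ratios were chosen after the values of the genes had been seen and are given as a description, with no test.

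**Figure D2:**
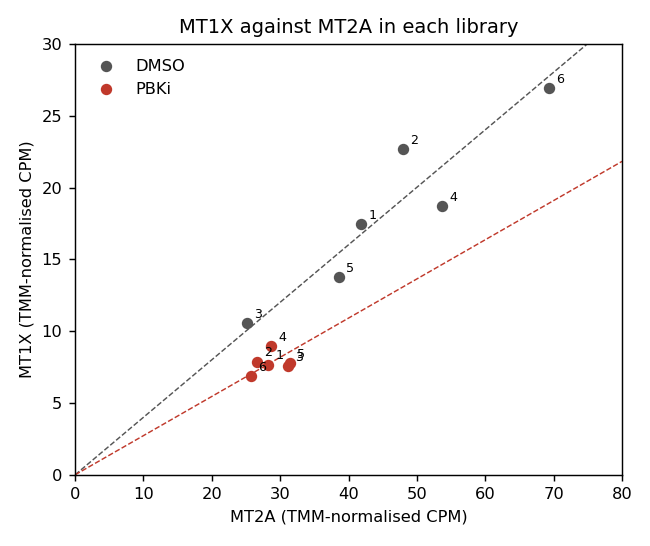
MT1X against MT2A, both in TMM-normalised CPM, with 1 point and replicate number per library (grey DMSO, red PBKi). Dashed lines have the mean ratio of each group as their slope, 0.400 in DMSO and 0.273 in PBKi, and DMSO replicate 3 lies near the DMSO line although its MT2A level is just below the PBKi range.

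The metallothionein cluster lies among other genes on chromosome 16, and 4 of 7 tested neighbours also fell while 0 rose, from 9 listed, beside 21.5% lower and 20.1% higher over all genes tested. HERPUD1, an endoplasmic reticulum stress gene, changed by -0.58 on the log2 scale (adjusted p = 5.77e-05, edgeR) and NUDT21, a factor in mRNA 3′ end processing, by -0.41 (adjusted p = 4.10e-06). BBS2, a component of the ciliary BBSome, changed by -0.34 (adjusted p = 0.000208, edgeR) and NUP93, a nuclear pore protein, by -0.29 (adjusted p = 0.000294). Metallothionein transcripts are also short. Among 124 tested genes with a main transcript of 350 to 450 bases, 22.6% were lower and 11.3% higher, beside 21.5% and 20.1% over all genes tested. Their median change was -0.10 on the log2 scale, and 6 had values as low as that of MT2A or lower, as did 327 of all 14505 genes tested. MT2A, MT1F and MT1X are themselves among the 124 genes, the 22.6% that were lower and the 6.

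**Figure D3:**
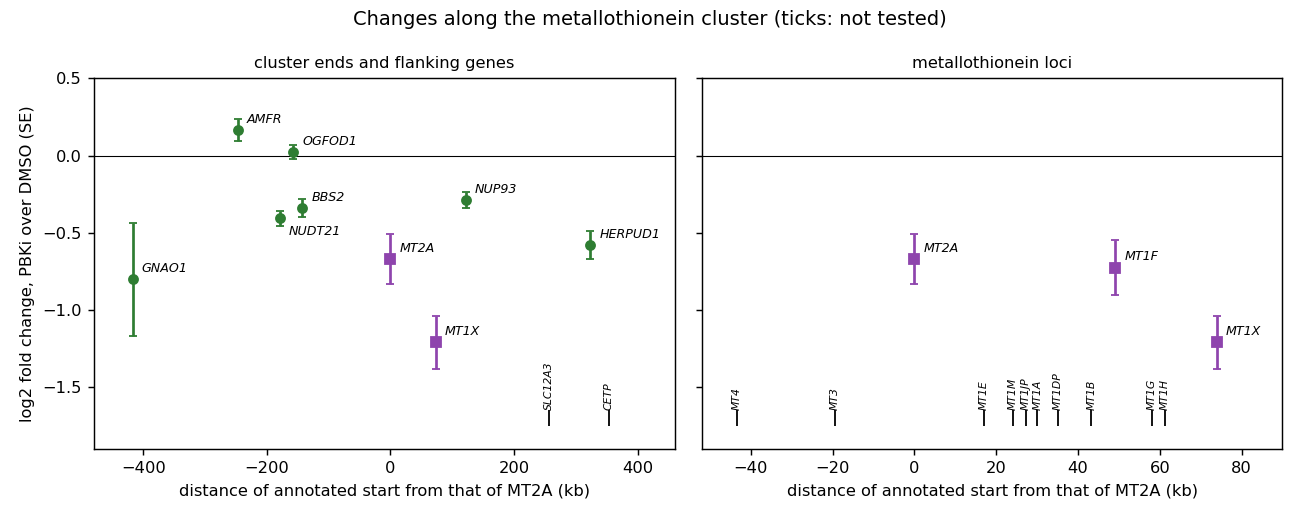
Log2 fold change of PBKi over DMSO with standard error (y axis) against the distance in kb of each gene's annotated start from that of MT2A (x axis), for the cluster ends with flanking genes (left) and for the metallothionein loci (right). Squares are metallothioneins, circles are flanking genes and ticks are genes with too few reads to test. MT2A, MT1F and MT1X lie at -0.67, -0.73 and -1.21, while tested flanking genes lie on both sides of 0.

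The transcript of MTF1 (ENSG00000188786, chr1:38275246-38325264, minus strand), the factor that switches on metallothionein genes in response to zinc, moved the other way. Its level says nothing of the activity of the protein. It lay between 18.6 and 32.1 CPM (median 25.1) in DMSO and between 28.4 and 37.6 CPM (median 32.1) in PBKi. The groups overlapped, with DMSO replicates 5 and 6 within the PBKi range. The mean rose from 25.7 ± 5.36 to 32.6 ± 3.38 CPM (SD, n = 6), a log2 fold change of 0.36 (SE 0.11, edgeR adjusted p = 0.0162). The rise was 0.61 in replicates 1 to 3 (adjusted p = 9.39e-05, edgeR) and 0.14 in replicates 4 to 6 (adjusted p = 0.412). The difference between these sets had an adjusted p of 0.927 (edgeR interaction). Over all genes, 4.83% had an interaction p under 0.05 and 0 of 14505 passed adjustment.

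SLC30A1 (ENSG00000170385, chr1:211744910-211752503, minus strand) exports zinc across the plasma membrane and is itself an MTF1 target. It lay between 39.3 and 61.4 CPM (median 49.3) in DMSO and between 46.4 and 53.9 CPM (median 51.5) in PBKi. The PBKi libraries all lay inside the DMSO range. Means were 50.1 ± 9.28 and 50.3 ± 2.96 CPM (SD, n = 6), and the log2 fold change was 0.01 (SE 0.096, 95% interval -0.18 to 0.20, edgeR adjusted p = 0.945). The sign depended on the libraries, at 0.21 in replicates 1 to 3 (adjusted p = 0.0473, edgeR) and -0.18 in replicates 4 to 6 (adjusted p = 0.385), and the difference between the sets did not pass the test (edgeR interaction, adjusted p = 0.927).

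SLC30A4 (ENSG00000104154, chr15:45771804-45814953, minus strand) moves zinc into vesicles. It lay between 294 and 389 CPM (median 339) in DMSO and between 353 and 389 CPM (median 362) in PBKi. PBKi replicate 5 and DMSO replicate 6 were the highest libraries at nearly the same level, and the other 5 PBKi libraries lay inside the DMSO range. Means were 339.5 ± 38.2 and 365 ± 12.5 CPM (SD, n = 6), and the log2 fold change of 0.11 missed the threshold (SE 0.065, 95% interval -0.02 to 0.23, edgeR adjusted p = 0.210).

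SLC39A6 (ENSG00000141424, chr18:33688494-33709348, minus strand), known as LIV-1, imports zinc and is an oestrogen-responsive gene in breast cancer. It lay between 197 and 228 CPM (median 215) in DMSO and between 182 and 215 CPM (median 194) in PBKi, and the groups overlapped. Means were 215 ± 10.7 and 197 ± 11.2 CPM (SD, n = 6), with a log2 fold change of -0.12 (SE 0.051, edgeR adjusted p = 0.0596). Leaving out DMSO replicate 5, its lowest DMSO library, brought the adjusted p to 0.0214, and leaving out PBKi replicate 5, its highest PBKi library, to 0.0461. These were the only 2 of 12 fits leaving out 1 library that called it, and adjusted p reached 0.190 in the others.

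SLC39A10 (ENSG00000196950, chr2:196440701-196602426, plus strand), the closest relative of SLC39A6 and its partner in a zinc-importing complex, fell. It lay between 66.8 and 79.2 CPM (median 74.7) in DMSO and between 52.7 and 59.7 CPM (median 56.8) in PBKi. The groups did not overlap. The mean fell from 73.8 ± 4.43 to 56.4 ± 2.82 CPM (SD, n = 6), a log2 fold change of -0.39 (SE 0.053, edgeR adjusted p = 1.64e-05), with -0.42 in replicates 1 to 3 and -0.35 in the other set. The ratio of SLC39A10 to SLC39A6 reads, likewise chosen after the values were seen, was 0.344 ± 0.0197 in DMSO and 0.287 ± 0.0164 in PBKi, with no overlap.

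**Figure D4:**
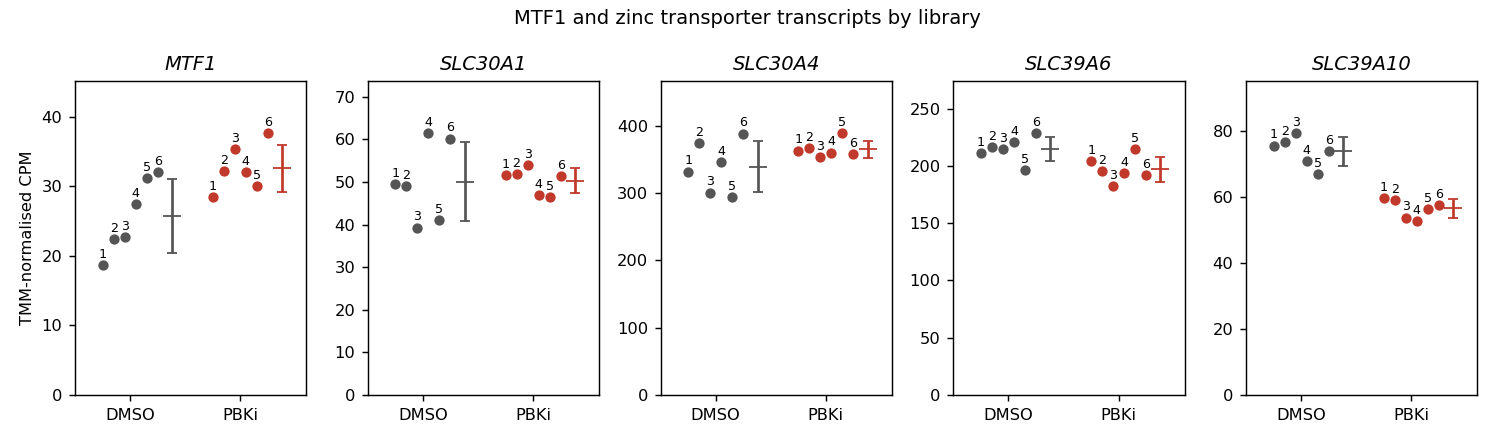
TMM-normalised CPM (y axes, from 0) of MTF1, SLC30A1, SLC30A4, SLC39A6 and SLC39A10 in each library of DMSO (grey) and PBKi (red), with replicate numbers at the points and the mean ± SD of 6 libraries beside them. Of these genes only SLC39A10 has no overlap between the groups, and SLC30A1 and SLC30A4 spread more widely in DMSO than in PBKi.

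Of the 20 other zinc transporters, 16 were tested, 2 were higher and 4 were lower, beside 20.1% higher and 21.5% lower over all genes tested. With library size alone, the calls among these 16 were 5 higher and 1 lower. SLC30A2, a vesicular exporter, had the largest change of these 16, from 1.15 ± 0.573 CPM in DMSO to 3.76 ± 0.574 CPM in PBKi (SD, n = 6). Its highest DMSO library, at 2.16 CPM, was below its lowest PBKi library, at 2.75 CPM, and its log2 fold change was 1.77 (SE 0.22, edgeR adjusted p = 4.96e-06). It rests on 105 reads in DMSO and 386 in PBKi. SLC39A11, an importer, rose from 32.3 ± 1.46 to 38.7 ± 1.45 CPM (log2 fold change 0.26, adjusted p = 0.000658 from edgeR, n = 6). Its call was lost in replicates 4 to 6 alone.

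Among the importers that fell, SLC39A8, which carries zinc, manganese and cadmium, went from 309 ± 11.7 to 201 ± 15.2 CPM (SD, n = 6), with all PBKi libraries at or below 214 CPM and all DMSO libraries at or above 293 CPM. Its log2 fold change was -0.62 (SE 0.055, edgeR adjusted p = 1.09e-07). SLC39A14, which carries zinc, iron and manganese, fell by 0.16 on the log2 scale (adjusted p = 0.00893, edgeR), SLC39A4, the main intestinal zinc importer, by 0.29 (adjusted p = 0.0331) and SLC39A9, a Golgi transporter, by 0.13 (adjusted p = 0.0218). With library size alone these calls were lost, at adjusted p of 0.0626, 0.0630 and 0.155 in the same order. The call of SLC39A4 held in 6 and that of SLC39A9 in 4 of 12 fits that each left out 1 library.

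**Figure D5:**
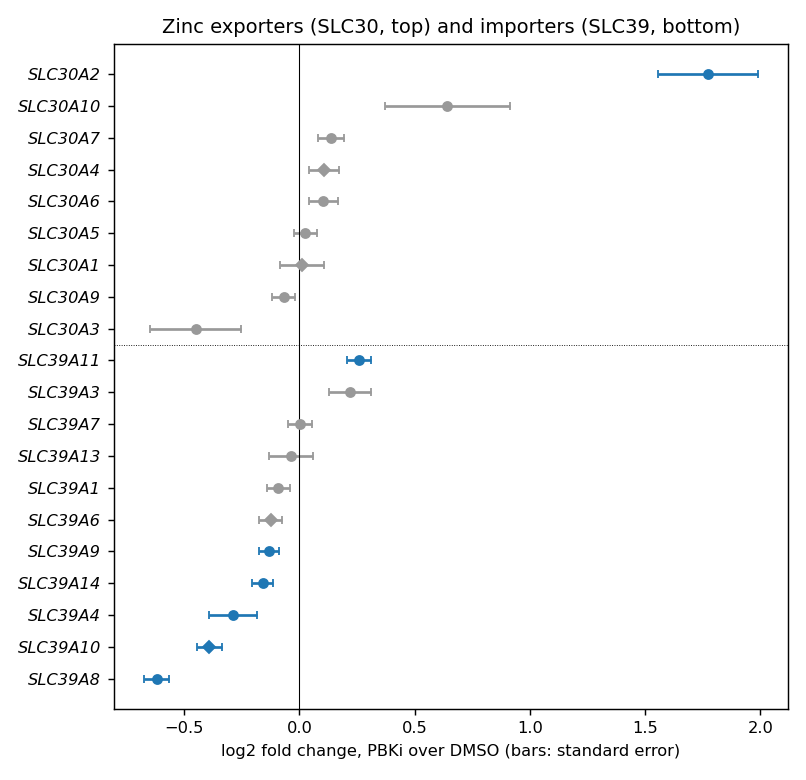
Log2 fold change of PBKi over DMSO with standard error (x axis) for every SLC30 and SLC39 gene tested (y axis), with exporters above the dotted line and importers below it. Blue marks genes with an adjusted p under 0.05, grey marks the rest, and diamonds mark SLC30A1, SLC30A4, SLC39A6 and SLC39A10. SLC30A2 at 1.77 and SLC39A8 at -0.62 are the ends of the range.

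Among genes handling copper, 2 of 7 tested were called, and among genes tied to zinc by other routes 1 of 8, beside 41.7% of all genes tested. ATP7A, a copper-exporting ATPase, rose by 0.37 on the log2 scale (adjusted p = 0.00182, edgeR) and ATOX1, the copper chaperone that delivers to it, fell by 0.26 (adjusted p = 0.00494). PRNP, the prion protein, was the gene of the second kind and rose by 0.38 (adjusted p = 3.36e-05, edgeR).

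Genes that respond to metals or to misfolded and oxidised proteins rose in 8 of 9 tested cases, beside 20.1% of all genes tested. The list held 10 genes, of which 9 were matched, and was chosen with earlier results of these data known. Its share is therefore given as a description only. TXNRD1, thioredoxin reductase, went from 619.9 ± 46.4 to 2018 ± 239 CPM (SD, n = 6), a log2 fold change of 1.71 (edgeR adjusted p = 1.84e-11). GCLM, a subunit of the enzyme that starts glutathione synthesis, rose by 1.75 on the log2 scale (adjusted p = 5.20e-11, edgeR). HMOX1, haem oxygenase, rose from 76.7 ± 30.2 to 197 ± 38.3 CPM (SD, n = 6, log2 fold change 1.37, adjusted p = 8.97e-05 from edgeR), with no overlap. The chaperone genes HSPA6, HSPA1B, HSPH1, BAG3 and DNAJB1 rose by 0.98, 0.40, 0.26, 0.24 and 0.24 on the log2 scale. The calls of HSPA6, BAG3 and DNAJB1 were lost in replicates 4 to 6 alone. HSPA1B has a near-identical copy, HSPA1A, and its count is uncertain for that reason.

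The metallothioneins varied together between the DMSO libraries, and less closely between the PBKi libraries. After each group was centred on its mean, log2 levels over the 12 libraries had a Pearson correlation of 0.91 for MT1X with MT2A, 0.87 for MT1F with MT2A and 0.82 for MT1F with MT1X, given as a description, since the points share library and depth. Within DMSO the values were 0.94, 0.97 and 0.98, and within PBKi they were 0.28, 0.70 and 0.27, each over 6 libraries. Among the 9991 other genes whose mean log2 CPM reached 3, those most like the mean of the metallothioneins were KLF6 (r = 0.92), PHACTR4 (0.91), SLU7 (0.91), ADAM9 (0.90) and TAOK3 (0.89). Within PBKi alone these correlations were 0.31, 0.55, 0.26, 0.48 and 0.34 in the same order, and within DMSO alone 0.95 to 0.99. Each of these 5 was lowest in DMSO replicate 3 and highest in DMSO replicate 6, extremes shared with the metallothioneins used to pick them. The log2 fold changes of these 5 with PBKi were 0.13, -0.17, -0.05, -0.22 and -0.46 in the same order, all smaller in size than those of MT1X, MT2A and MT1F.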

How the data were processed

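RNAseq of 12 C4-2 libraries (6 DMSO, 6 PBKi) was analysed. The authors aligned single-end 40-base reads to GRCh37 with TopHat2 2.0.4 and deposited HTSeq 0.5.3p9 counts per gene, without normalisation, in 47 lane files. Whether counting used strand is not given in the sources used here. Lanes were summed per library (3 lanes for DMSO replicate 5, 4 for the others), and groups and replicate numbers came from the labels. The 14505 genes that reached 10 counts in 6 or more libraries were tested with edgeR 4.0.16 (R 4.3.3, TMM factors, quasi-likelihood test, no covariate), with Benjamini-Hochberg adjustment at 0.05. The authors used DESeq 1.10.1. Values are TMM-normalised CPM. Single values were compared by two-sided exact permutation of the group labels. Coordinates and lengths came from GENCODE 44 mapped to GRCh37. The procedure was tested on simulated counts. All 10 genes are named, genes of other lists are named where called, and the 5 most alike by centred correlation. Genes and lists were chosen with earlier results of these data known. Alternatives were DESeq2 1.42.0, limma-voom (limma 3.58.1), RLE factors, library size alone, other filters and thresholds, lanes 6 to 8, a replicate block, replicate sets and leaving out each library.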

Additional observations from a re-analysis of the deposited data

Results flagged for a closer look

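SLC30A4 in PBKi replicate 5, at 389.1 CPM, stood apart from the other 5 PBKi libraries, the nearest of which was at 366.6 CPM. The gap was 0.630 of the range of the group, just over the critical value for 6 libraries. Of 16 groups of libraries examined (8 genes in 2 conditions) 1 was marked, and chance marks about 1 in 20.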

How the results depend on the processing

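The falls of MT1X and SLC39A10 were called in all 23 alternative fits. MT2A and MT1F lost their call in replicates 1 to 3 alone. MTF1 lost its call in replicates 4 to 6 alone and at a threshold of 0.01. MT1F was not tested with a minimum of 50 counts. The counts of genes called higher and lower with replicates 4 to 6 only were 1303 and 1216, with 0 of the 10 genes higher and 2 other zinc transporters called. Calls lost in that set included those of SLC39A11, SLC39A14, SLC39A4, SLC39A9, NUP93, ATP7A, ATOX1 and PBK. In replicates 1 to 3 only, 2 of the 10 genes were higher and 2 lower. An adjusted p under 0.01 left 2073 genes lower and 0 of the 10 higher. Requiring a change of 0.5 or more on the log2 scale left 1278 genes higher and 626 lower, 0 of the 10 higher and 3 lower, without SLC39A10, and 2 other zinc transporters. SLC30A1 turned to -0.18 in replicates 4 to 6 only and lay between -0.056 and 0.086 when each library was left out, turning negative without DMSO replicate 3, DMSO replicate 5 or PBKi replicate 3. The cause of these shifts was not tested. Same-numbered libraries deviated together with correlations of 0.0887 to 0.299 over 14505 genes, 1 of 6 pairs being under 0.1, and 4 of 6 libraries in each group correlated best with their own number. The labels name no shared culture or day, so the numbers were not treated as pairs. With the replicate number as a block, 3485 genes were higher and 3803 lower, and SLC39A6 was called (-0.13, adjusted p = 0.0489 from edgeR). SLC39A6 was also called with a covariate for the replicate sets (adjusted p = 0.0362) and with DESeq2 (adjusted p = 0.0432). It was called in only 5 of 23 alternative fits, and with library size alone it was at -0.08 (adjusted p = 0.252, edgeR). Depth limited MT1E and MT1G, which had too few reads to test, and MT1F, with at most 68 reads per library.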
